A study of Mus musculus with 15 samples.

Results

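The mouse genes for 9 scaffold proteins of the excitatory postsynapse (Shank1, Shank2, Shank3, Dlg4, Dlgap1, Dlgap2, Dlgap3, Homer2 and Iqsec2) were followed across the brains of APP-PS1 mice with and without antibody against CD8a and of wild-type mice. They were taken by symbol from a table of read counts for 46078 Ensembl genes, and all 9 were found and passed the filter on low counts, which kept 18974 genes. Each of 15 mice, 12 months old, gave 1 library from a brain region, not named in the sources used here, that was dissected from 1 hemisphere. The groups were 5 APP-PS1 mice given anti-CD8a (10 intraperitoneal injections of 0.8 mg over 4 weeks), 5 APP-PS1 mice given PBS (100 µL an injection) and 5 wild-type (WT) mice given PBS. CD8a marks cytotoxic T cells. APP-PS1 mice are a model of Alzheimer's disease with 2 transgenes, Mo/HuAPP695swe (a mouse-human hybrid of the amyloid precursor with the Swedish mutation) and PS1-dE9 (mutant human presenilin 1), which the prion promoter expresses in neurons of the central nervous system. By the labels, 2 of the 5 anti-CD8a mice, 2 of the 5 APP-PS1 PBS mice and 4 of the 5 WT mice were female. The labels also mention an isotype antibody, for which no library was analysed here, so anti-CD8a and injection of an antibody as such cannot be told apart.

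The postsynaptic density is a protein sheet under the membrane of excitatory synapses, which lies mostly on dendritic spines. PSD-95, the product of Dlg4, holds glutamate receptors at the membrane and binds the SAPAP proteins made from Dlgap1, Dlgap2 and Dlgap3. SAPAP proteins bind the Shank proteins, the deepest layer of the scaffold, and Shank proteins bind Homer proteins, which connect them to metabotropic glutamate receptors. Iqsec2 (BRAG1) is bound by PSD-95 and activates the small GTPase Arf6, which acts in the trafficking of AMPA receptors. In bulk tissue, fewer cells of a type and less RNA per cell cannot be told apart.

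The genes lie on 7 chromosomes of GRCm38. Shank1 (ENSMUSG00000038738, chr7:44310253-44360572, plus strand), Shank2 (ENSMUSG00000037541, chr7:144001928-144424494, plus) and Homer2 (ENSMUSG00000025813, chr7:81600481-81707527, minus) are on chromosome 7. Shank3 (ENSMUSG00000022623) is at chr15:89499623-89560261 (plus) and Dlg4 (ENSMUSG00000020886) at chr11:70016942-70047522 (plus). The SAPAP genes are at chr17:69969073-70821413 for Dlgap1 (ENSMUSG00000003279), chr8:14095865-14847680 for Dlgap2 (ENSMUSG00000047495) and chr4:127169204-127237022 for Dlgap3 (ENSMUSG00000042388), all on the plus strand. Iqsec2 (ENSMUSG00000041115, chrX:152144268-152225236, plus) is the X-linked member. Exons on the opposite strand overlap 339 bp of Shank1 (gene 1700008O03Rik), 271 bp of Shank3 (Gm15609), 92 bp of Dlgap1 (AC079441.1) and 525 bp of Homer2 (Gm44570). The sources used here do not state whether strand was used in counting, so reads from those stretches cannot be assigned to 1 of the partners.

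The RefSeq promoter table for GRCm38.p6 held entries for 6 of the 9 genes, and the 250 bases before the start site are shown for 3. Shank3 and Iqsec2 had the largest differences between the APP-PS1 groups, and Homer2 had the smallest. Capitals mark matches, on either strand, to the GC box (GGGCGG, bound by Sp1-family factors) or to the binding site of Egr factors (GCGNGGGCG), which overlap where the run is longer than 6 letters and holds both. The strands and places are chr15:89499358-89499607 (plus) for Shank3, chrX:152144018-152144267 (plus) for Iqsec2 and chr7:81706926-81707175 (minus) for Homer2.
Shank3: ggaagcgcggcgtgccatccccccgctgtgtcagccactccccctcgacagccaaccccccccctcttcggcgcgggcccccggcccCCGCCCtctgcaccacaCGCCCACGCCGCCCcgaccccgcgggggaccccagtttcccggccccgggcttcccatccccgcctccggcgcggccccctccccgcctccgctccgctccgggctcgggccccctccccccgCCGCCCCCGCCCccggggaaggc
Iqsec2: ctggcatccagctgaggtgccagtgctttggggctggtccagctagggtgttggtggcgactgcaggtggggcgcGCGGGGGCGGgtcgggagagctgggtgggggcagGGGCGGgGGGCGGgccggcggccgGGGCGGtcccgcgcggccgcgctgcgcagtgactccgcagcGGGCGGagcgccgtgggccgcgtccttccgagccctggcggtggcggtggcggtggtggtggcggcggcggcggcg
Homer2: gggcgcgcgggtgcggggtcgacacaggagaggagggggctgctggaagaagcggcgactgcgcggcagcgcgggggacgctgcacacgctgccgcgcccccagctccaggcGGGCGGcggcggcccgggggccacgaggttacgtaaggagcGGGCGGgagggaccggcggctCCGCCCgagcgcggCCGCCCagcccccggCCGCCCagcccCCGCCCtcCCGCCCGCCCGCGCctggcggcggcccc
All 3 windows were rich in GC, at 82.4% for Shank3, 80.0% for Iqsec2 and 83.2% for Homer2. They held 4, 5 and 8 GC boxes and 2, 1 and 1 Egr sites in that order. Over the 32851 promoters of the table, 32.7% held a GC box and 4.70% an Egr site in the same window. The cAMP response element (TGACGTCA, in 1.55% of promoters) and the TATA box (TATAAA, in 12.4%) were in none of these 3 windows. The table also held a second start site of Homer2 and one of Iqsec2, whose windows, not shown, held no GC box and no Egr site. That of Homer2 held 1 TATA box. Of the genes not shown, Dlgap3 (46.8% GC) and Dlgap1 (55.2% and 52.4%) had neither a GC box nor an Egr site in their windows. Dlg4 had 1 GC box, in its window with 56.8% GC, and no Egr site. Its windows with 47.2% and 68.0% GC held neither.

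Libraries held 17736524 to 36485809 counts assigned to genes, at which 3 counts equal 0.169 to 0.0822 CPM (counts scaled to a common library size, here with TMM factors). App was at 2467 to 3153 CPM in the anti-CD8a group and 2420 to 3036 CPM in the APP-PS1 PBS group, against 1230 to 1324 CPM in WT mice. Xist and Y-linked genes matched the labelled sex in 14 of 15 libraries. The exception was APP-PS1 PBS replicate 1, labelled male. Ttr, which the choroid plexus expresses strongly, exceeded 1000 CPM in 1 anti-CD8a, 2 APP-PS1 PBS and 2 WT libraries. The APP-PS1 PBS group was also split by GC content. Genes were put into 5 bins of transcript GC content, and in each library the median level of the highest bin was set against that of the lowest, relative to the mean of all libraries. This shift was -0.0057 to 0.12 on the log2 scale in the anti-CD8a group, -0.30 to 0.13 in the APP-PS1 PBS group and -0.083 to 0.16 in WT mice. APP-PS1 PBS replicate 4 had the 0.13, and the other 4 libraries of its group were at -0.057 or below.

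All 9 genes were well measured. Per kilobase of merged exons, and over all 15 libraries, Shank1 had the highest level at 45.9 ± 5.41 CPM per kb (SD, n = 15) and Dlg4 the next at 45.0 ± 3.93. These 2 did not differ beyond their spread, since Shank1 was above Dlg4 in 9 of 15 libraries. Dlgap1 followed at 34.2 ± 2.502 CPM per kb, Dlgap3 at 27.0 ± 3.56, Iqsec2 at 23.7 ± 2.45, Shank3 at 22.1 ± 2.64 and Shank2 at 20.4 ± 2.17. Shank3 was above Shank2 in 9 of 15 libraries. Homer2, at 12.3 ± 0.696 CPM per kb, and Dlgap2, at 8.34 ± 0.953, were lowest, and their ranges overlapped neither each other's nor that of Shank2. The length used matters for the top of this order, as Dlg4 and Dlgap1 came before Shank1 when levels were divided by the longest transcript (94.3, 85.3 and 49.1 CPM per kb).

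**Figure D1:**
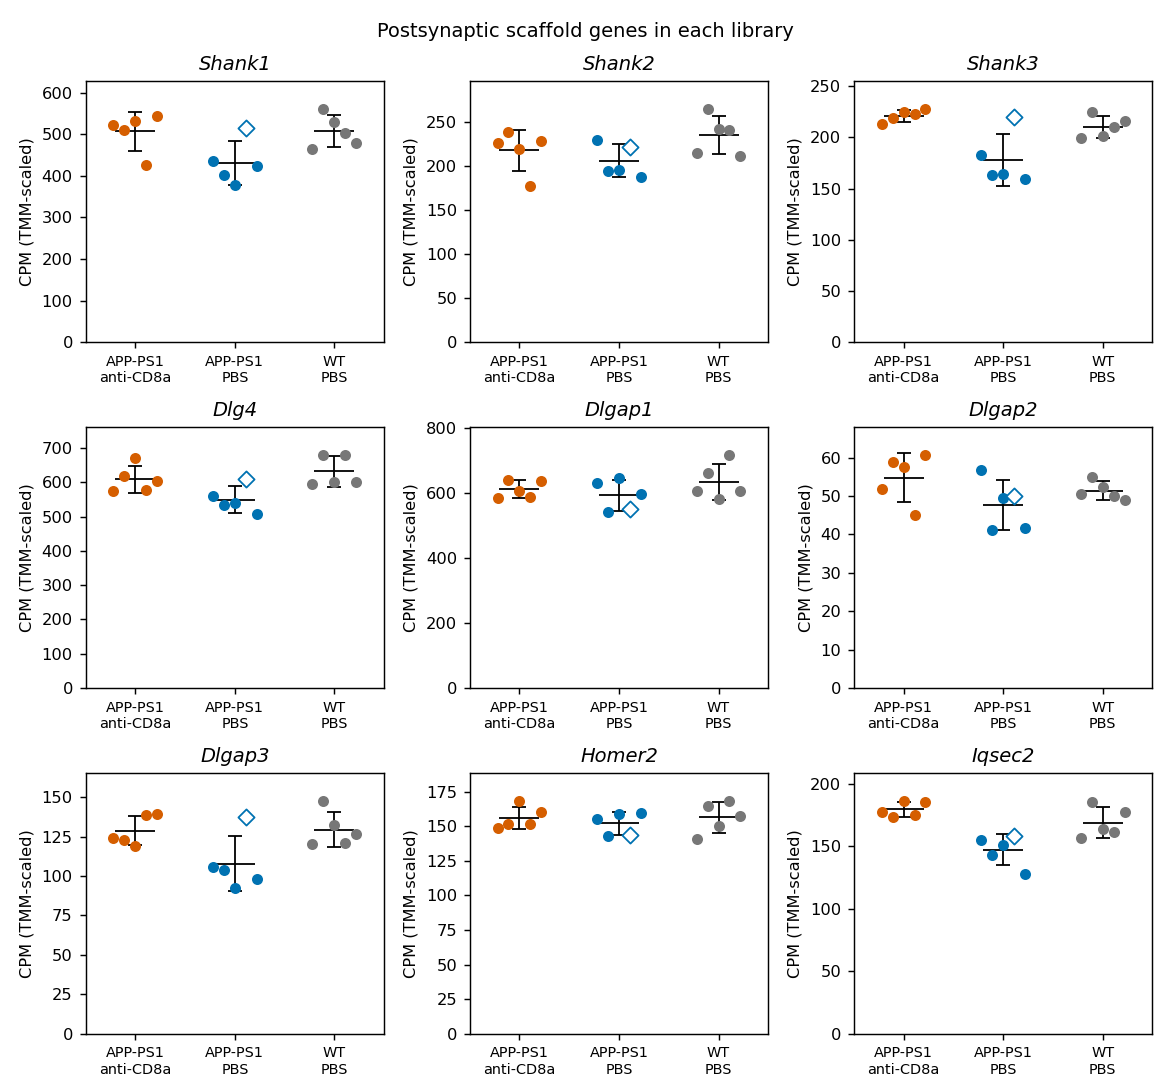
CPM of each scaffold gene in each library (points), by group, with the group mean and SD (bars, n = 5 libraries). The open diamond is APP-PS1 PBS replicate 4. Iqsec2 libraries of the anti-CD8a group all lie above those of the APP-PS1 PBS group, and for Shank3, Dlgap3 and Shank1 the diamond lies among the libraries of the other groups.

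The first comparison set anti-CD8a against PBS within APP-PS1 mice, which the labels present as the test of CD8+ T cell depletion. Cd8a, the gene of the antibody's target, was barely detected and not lower in the anti-CD8a group, with 53 counts over its 5 libraries (mean 0.340 CPM), against 42 counts over the 5 APP-PS1 PBS libraries (mean 0.299 CPM), so these counts do not show a depletion. The level of every scaffold gene was estimated higher in the anti-CD8a group, by log2 fold changes of 0.036 to 0.32 with a median of 0.20, against a median of 0.015 over all genes tested, 54.1% of which were estimated higher. None of the 9 passed an adjusted p of 0.05 by edgeR's quasi-likelihood test, and neither did any of the 18974 genes (0% called higher). At an unadjusted p under 0.05, 6 of the 9 were higher, where the share over all genes was 7.59%. The 9 genes were chosen with earlier results of these data known. Such counts, here and in the other comparisons, therefore describe the genes and are no test of the set. DESeq2 called Shank3 (adjusted p = 0.0209) and Iqsec2 (adjusted p = 0.00912) higher, among 0.449% of genes that it called higher, and limma-voom called none of the 9.

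Among the Shank genes, the largest difference was in Shank3, whose loss is known from Phelan-McDermid syndrome and autism. Shank3 was at 213, 219, 224, 223 and 228 CPM in the anti-CD8a libraries, against 183, 163, 164, 220.4 and 159.8 CPM in the APP-PS1 PBS libraries. The anti-CD8a libraries were close together, and only replicate 4 of the PBS group reached them. The log2 fold change was 0.32 (SE 0.073, 95% interval 0.16 to 0.47, edgeR adjusted p = 0.223). Shank1 was at 523, 511, 532, 427 and 544 CPM with anti-CD8a, against 435, 401, 378, 516 and 424 CPM with PBS. In each group, 2 libraries lay within the other group's range, and the log2 fold change was 0.24 (SE 0.077, edgeR adjusted p = 0.262). Shank2 overlapped more widely, at 177 to 238 CPM with anti-CD8a and 188 to 229 CPM with PBS, with a log2 fold change of 0.078 (95% interval -0.093 to 0.25).

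Dlg4, the main anchor of NMDA receptors, was at 574, 619, 671, 577 and 605 CPM in anti-CD8a libraries, against 559.7, 532, 538, 610.0 and 507 CPM in APP-PS1 PBS libraries. PBS replicate 4 was again the only one of its group within the anti-CD8a range, and the log2 fold change was 0.15 (SE 0.060, edgeR adjusted p = 0.331). The SAPAP genes were uneven. Dlgap3, which in mice is needed for normal corticostriatal synapses, was at 124, 123, 119, 139 and 139 CPM with anti-CD8a, against 106, 104, 92.7, 137 and 98.3 CPM with PBS, a log2 fold change of 0.26 (SE 0.092, edgeR adjusted p = 0.291). Dlgap2 spanned 45.0 to 60.7 CPM with anti-CD8a and 41.0 to 56.7 CPM with PBS, with a log2 fold change of 0.20 (SE 0.091, edgeR adjusted p = 0.373). Dlgap1 spanned 584 to 640.2 CPM with anti-CD8a and 541 to 646 CPM with PBS. Its log2 fold change of 0.044 had a 95% interval of -0.10 to 0.19.

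Iqsec2 was at 177, 174, 187, 175 and 186 CPM in anti-CD8a libraries, against 155, 143, 151, 158 and 128 CPM in APP-PS1 PBS libraries. It was the only scaffold gene whose groups did not overlap, which held for 0.954% of all genes in that direction. The log2 fold change was 0.29 (SE 0.059, 95% interval 0.16 to 0.41, edgeR adjusted p = 0.223). Homer2, at the other end of the scaffold, was at 148, 151, 168, 151 and 160.4 CPM with anti-CD8a, against 156, 143, 159, 144 and 159.8 CPM with PBS. In each group, 3 libraries lay within the other group's range, and the log2 fold change was 0.036 (95% interval -0.081 to 0.15).

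The second comparison set APP-PS1 against WT mice, both given PBS. It shares the APP-PS1 PBS libraries with the first, so the 2 sets of values are not independent. Every scaffold gene was estimated lower in APP-PS1 mice, with a median log2 fold change of -0.17, against -0.011 over all genes, 53.1% of which were estimated lower. None of the 9 passed an adjusted p of 0.05 by edgeR, limma-voom or DESeq2, where edgeR called 0.0896% and DESeq2 0.431% of genes lower. By edgeR 5 had an unadjusted p under 0.05, where 6.02% of all genes were lower at that level. The groups overlapped for all 9 genes, where 1.06% of all genes were lower with no overlap.

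In WT libraries Shank3 was at 199, 225, 202, 210.1 and 216 CPM, so that 4 APP-PS1 PBS libraries, at 159.8 to 183 CPM, lay below all WT libraries and replicate 4 lay among them. The log2 fold change of Shank3 was -0.22 (SE 0.077, edgeR adjusted p = 0.269). Dlgap3 was at 120.2, 148, 132, 121 and 126 CPM in WT mice and showed the same arrangement, with a log2 fold change of -0.25 (SE 0.097, edgeR adjusted p = 0.336). Iqsec2 was at 156, 185, 163, 161 and 178 CPM in WT mice, with a log2 fold change of -0.22 (SE 0.063, edgeR adjusted p = 0.162), the smallest adjusted p of the 9. Its APP-PS1 PBS libraries reached 158 CPM, just into the WT range. Shank1 spanned 378 to 516 CPM in APP-PS1 PBS mice and 465.8 to 561 CPM in WT mice (log2 fold change -0.19, SE 0.081). Dlg4 spanned 507 to 610.0 CPM in APP-PS1 PBS mice and 596 to 680.1 CPM in WT mice (log2 fold change -0.17, SE 0.064). The other 4 genes had log2 fold changes of -0.15 (Shank2), -0.093 (Dlgap1), -0.087 (Dlgap2) and -0.033 (Homer2).

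Against WT mice, anti-CD8a-treated APP-PS1 mice had 6 scaffold genes estimated higher and 3 lower. The log2 fold changes ran between -0.074 (Shank2, 95% interval -0.26 to 0.11) and 0.11 (Dlgap2, 95% interval -0.095 to 0.31). None of the 9 was called by edgeR, which called 1.94% of all genes in either direction, and none had an unadjusted p under 0.05, which 12.1% of all genes had. Shank3 averaged 221 ± 5.83 CPM in anti-CD8a mice and 210.2 ± 10.4 CPM in WT mice, and Iqsec2 179.6 ± 6.05 and 169 ± 12.2 CPM (SD, n = 5 each). The intervals of this comparison still allow differences of up to 0.26 (Shank3) and 0.20 (Iqsec2) on the log2 scale. The term for labelled sex called none of the 9, among 0.0316% of all genes called, and X-linked Iqsec2 had a female to male log2 fold change of -0.045 (95% interval -0.16 to 0.066).

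**Figure D2:**
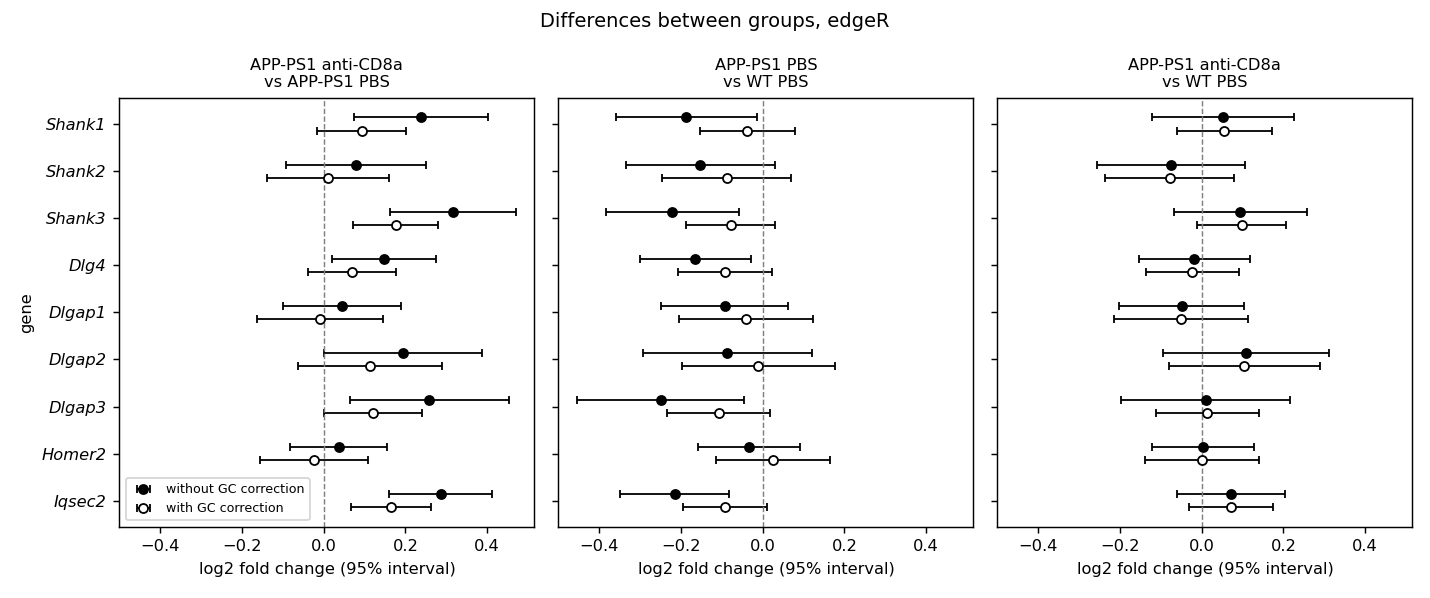
Log2 fold changes of the 9 scaffold genes with 95% intervals in the 3 comparisons, from edgeR, without (filled) and with (open) correction for transcript GC content. Shank3 goes to 0.18 with the correction, against 0.32 without, in the comparison of the APP-PS1 groups, and the comparison of anti-CD8a-treated with WT mice barely moves.

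APP-PS1 PBS replicate 4 had a large part in these estimates. Without it, edgeR called Shank3 higher with anti-CD8a (log2 fold change 0.41, SE 0.050, adjusted p = 0.0126), the 1 gene called higher of 19099 tested (0.00524%). Against WT mice, Shank3 (-0.35, SE 0.055, adjusted p = 0.00729) and Dlgap3 (-0.40, SE 0.076, adjusted p = 0.0206) were then called lower by edgeR, where 0.623% of genes were. With correction for transcript GC content and without replicate 4, edgeR called neither gene in either comparison. Shank3 was then at 0.21 (SE 0.050, edgeR adjusted p = 0.456) with anti-CD8a against PBS. In APP-PS1 PBS against WT mice it was at -0.12 (SE 0.055, edgeR adjusted p = 0.478). Dlgap3 was there at -0.17 (SE 0.059, edgeR adjusted p = 0.293). By the labels, the mouse of replicate 4 was 1 of the 2 females of its group. It was the only labelled female of the group with its prefix of the animal number. Nothing else in the labels sets it apart from the rest of its group. Leaving out any of the other 14 libraries, where it belonged to the comparison, called none of the 9. Without replicate 1 of that group, whose sex label did not match, Shank3 was at 0.33 (SE 0.080, edgeR adjusted p = 0.123) and Iqsec2 at 0.30 (SE 0.065, edgeR adjusted p = 0.122) with anti-CD8a against PBS, and at -0.23 each in APP-PS1 PBS against WT mice.

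Transcript GC content moved with the same contrasts over the whole table. In the comparison of the APP-PS1 groups, with all genes in 10 equal bins of GC content (bin 1 the lowest), the median log2 fold change was 0.13 in bin 10 and -0.094 in bin 1. In APP-PS1 PBS against WT mice it was -0.12 in bin 10 and 0.099 in bin 1. In anti-CD8a-treated against WT mice there was little trend, with -0.0051 in bin 10 and 0.0086 in bin 1. All 9 scaffold genes were in the upper 4 bins. Dlgap3 (64.7% GC), Shank1 (63.7%), Shank3 (62.3%) and Iqsec2 (59.6%) were in bin 10, Dlgap2 (56.4%) and Dlg4 (56.1%) in bin 9, Shank2 (55.2%) and Homer2 (54.2%) in bin 8 and Dlgap1 (53.7%) in bin 7. The 4 genes of bin 10 had the 4 largest differences between the APP-PS1 groups, and in that bin 22.1% of all genes were higher at an unadjusted p under 0.05, against 1.27% in bin 1. In APP-PS1 PBS against WT mice, 18.6% of all genes in bin 10 and 12.5% in bin 9 were lower at that level. The share was 0.318% in bin 1. The scaffold genes lower at that level were Shank1, Shank3, Dlgap3 and Iqsec2 of bin 10 and Dlg4 of bin 9.

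**Figure D3:**
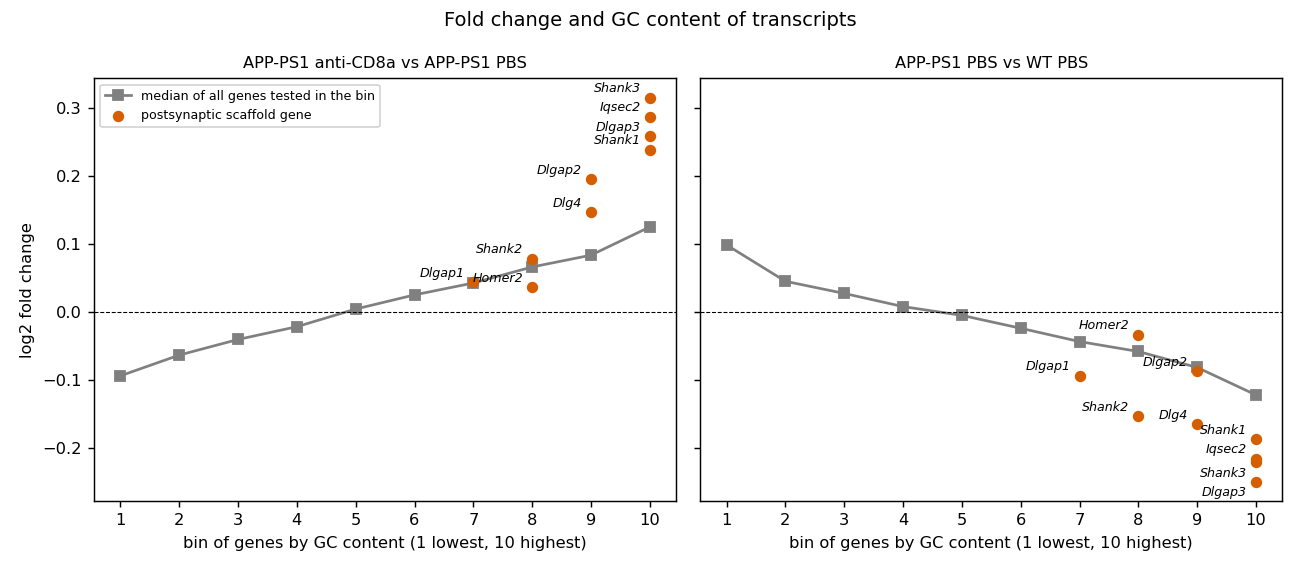
Median log2 fold change of all genes tested in each of 10 bins of transcript GC content (grey squares) and the 9 scaffold genes (orange points), for anti-CD8a against PBS in APP-PS1 mice (left) and APP-PS1 PBS against WT PBS (right). In bin 10 the grey medians are 0.13 and -0.12, and Shank3, Iqsec2, Dlgap3 and Shank1 lie farther from 0 than these.

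With a fitted curve of each library's GC trend subtracted, 7 scaffold genes were estimated higher and 2 lower with anti-CD8a. The median log2 fold change was 0.093. The curve was held flat for the genes richest in GC. Shank1, Shank3 and Dlgap3 therefore received the same shift, not one for their own GC content. Shank3 was then at 0.18 (SE 0.049, edgeR adjusted p = 0.387), Iqsec2 at 0.17 (SE 0.046, edgeR adjusted p = 0.387) and Dlgap3 at 0.12 (SE 0.056, edgeR adjusted p = 0.554). These 3 were the ones with an unadjusted p under 0.05, where 4.66% of all genes were higher at that level. Dlgap1 and Homer2 changed sign, to -0.0089 and -0.023. These values depend on how GC content is defined. With the GC content of each gene's longest transcript in place of the median over its coding transcripts, all 9 genes were estimated higher (median 0.12), Dlgap1 and Homer2 at 0.012 and 0.082. That transcript has 46.8% GC for Dlg4 and 44.4% for Homer2, below their medians. Dlg4 then differed by 0.16 (SE 0.058, edgeR adjusted p = 0.469), against 0.069 with the median, and was a further gene with an unadjusted p under 0.05. In APP-PS1 PBS against WT mice, the median was -0.079 with the correction by the median GC content, 8 genes were estimated lower, and none had an unadjusted p under 0.05, where 3.16% of all genes were lower. By the longest transcript all 9 were estimated lower (median -0.081), and Dlg4, at -0.16 (SE 0.062, edgeR adjusted p = 0.382), had an unadjusted p under 0.05. What the GC trend comes from was not tested.

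**Figure D4:**
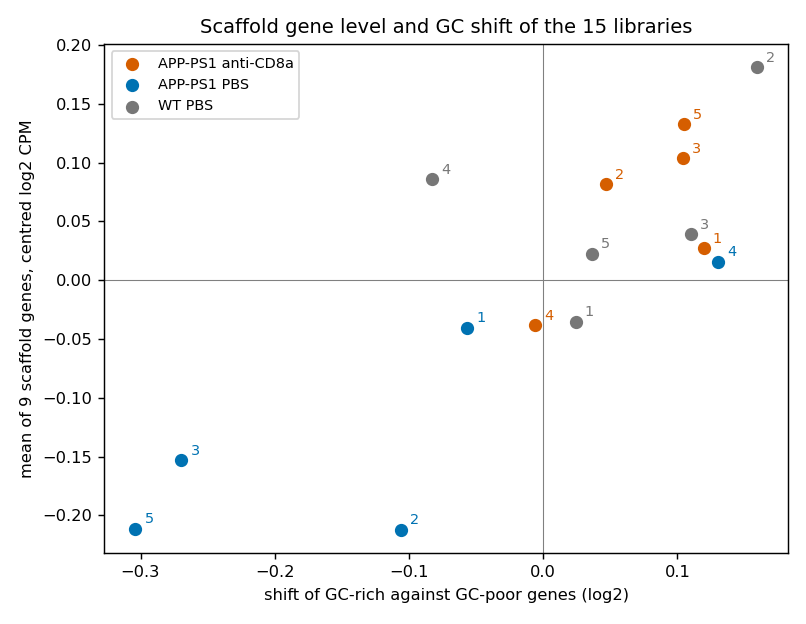
Mean level of the 9 scaffold genes (centred log2 CPM, vertical) against the GC shift (horizontal, log2) of the 15 libraries, numbered by replicate and coloured by group. APP-PS1 PBS replicates 2, 3 and 5 are lowest on both axes, and replicate 4 of that group, at a GC shift of 0.13, lies among anti-CD8a and WT libraries.

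Over the libraries, the mean of the 9 genes was lowest in APP-PS1 PBS replicates 2 (-0.21), 5 (-0.21) and 3 (-0.15, centred log2 CPM). These 3 libraries also had the lowest GC shifts, at -0.11, -0.30 and -0.27. Replicates 2 and 5 were among the 5 libraries rich in Ttr. Without those 5 libraries, the median log2 fold change of the 9 genes was 0.087 with anti-CD8a, Shank3 was at 0.22 (edgeR adjusted p = 0.610) and Iqsec2 at 0.20 (edgeR adjusted p = 0.533). The animal numbers in the labels begin with 1 of 2 prefixes, with 3 and 2 mice of each group. Among mice of the larger set, which holds APP-PS1 PBS replicate 4, the median was 0.082 with anti-CD8a against PBS and -0.087 in APP-PS1 PBS against WT mice. In the smaller set it was 0.19 and -0.27. Shank3 differed between the APP-PS1 groups by 0.15 in the larger set and 0.45 in the smaller, and Iqsec2 by 0.21 and 0.27. Dlgap3 differed by 0.020 in the larger set and 0.53 in the smaller, and by 0.022 in labelled females and 0.40 in labelled males. APP-PS1 PBS replicate 4 was also 1 of the 2 labelled females of its group. Replicate 1, whose sex label did not match, was among the labelled males. These values therefore cannot tell sex from single libraries. Shank3 in APP-PS1 PBS against WT mice was at -0.0082 in the larger set and -0.38 in the smaller.

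Family members were compared with each other inside each library, a ratio that does not depend on library scaling. The 6 pairs were chosen after values had been seen, and the 12 tests of the first 2 comparisons were adjusted together. The log2 ratio of Shank3 to Shank2 averaged 0.032 ± 0.18 in anti-CD8a mice and -0.22 ± 0.12 in APP-PS1 PBS mice (SD, n = 5 each), a difference of 0.25 (two-sided exact permutation p = 0.0238, adjusted p = 0.286). No pair passed the adjustment. The log2 ratio of Dlgap3 to Dlgap1 averaged -2.25 ± 0.12 in anti-CD8a mice and -2.47 ± 0.30 in APP-PS1 PBS mice. The difference was 0.22, below the larger of these SDs (exact permutation p = 0.175). With the GC correction the Shank3 to Shank2 difference was 0.17 (exact permutation p = 0.0556).

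The genes around the scaffold are given from lists made by function. Of 20 other genes of the excitatory postsynaptic density, 18 were estimated higher with anti-CD8a, 7 of them at an unadjusted p under 0.05, and none was called by edgeR. The median was 0.098. With the GC correction 17 were estimated higher, 1 of them at an unadjusted p under 0.05, and the median was 0.061. Kalrn, a guanine nucleotide exchange factor that shapes spines, averaged 637 CPM in anti-CD8a mice and 522 CPM in APP-PS1 PBS mice (log2 fold change 0.29, SE 0.076, edgeR adjusted p = 0.223). Of 11 glutamate receptor and auxiliary subunit genes, 9 were estimated higher, with a median of 0.15 that was 0.079 with the GC correction. Cacng8, an auxiliary subunit of AMPA receptors, had a log2 fold change of 0.36 (SE 0.083, edgeR adjusted p = 0.223), and Grin1, the obligatory NMDA receptor subunit, 0.19 (SE 0.059, edgeR adjusted p = 0.250). Gria2 and Grm5 were at -0.029 and -0.11.

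Paralogs of the 9 genes did not share a direction. Of 8, 5 were estimated higher with anti-CD8a and 3 lower, and none was called by edgeR. Dlg3, which encodes SAP102, was at 0.16 (SE 0.051, edgeR adjusted p = 0.262) and Dlg1, which encodes SAP97, at -0.14 (SE 0.049, edgeR adjusted p = 0.291). Homer3 was at 0.21 and Homer1 at -0.16. Transcript GC content was 51.9% for Dlg3 and 59.4% for Homer3, and 45.2% for Dlg1 and 43.5% for Homer1. Of 8 genes of the inhibitory postsynapse, among them Gphn, the gephyrin scaffold (0.0032), 4 were estimated higher and 4 lower, with a median of -0.0059. With the GC correction 7 of these 8 were estimated higher, with a median of 0.041, near the 0.061 of the density genes. In APP-PS1 PBS against WT mice, 17 of the 20 density genes, 6 of the 11 receptor genes, 5 of the 8 paralogs and 6 of the 8 inhibitory genes were estimated lower, and edgeR called none of these. Iqsec3 is counted both among the paralogs and among the inhibitory genes.

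Estimates for tissue markers went in both directions, and edgeR called none between the APP-PS1 groups. All 8 hippocampal markers were estimated higher with anti-CD8a (median log2 fold change 0.27, 5 at an unadjusted p under 0.05), and 6 of 8 with the GC correction (median 0.19). Their summed level was 655 to 768 CPM in anti-CD8a mice, 557 to 625.1 CPM in APP-PS1 PBS mice and 608 to 725 CPM in WT mice. The 6 markers of excitatory neurons summed to 4915 to 6229 CPM in anti-CD8a mice, 4585 to 5006 CPM in APP-PS1 PBS mice and 4936 to 5589 CPM in WT mice. The 12 choroid plexus markers summed to 268 to 3191 CPM, 299 to 7177 CPM and 258 to 10994 CPM in these groups. Cerebellar markers summed to 125 to 225 CPM in anti-CD8a mice, 135 to 222 CPM in APP-PS1 PBS mice and 144 to 227 CPM in WT mice. Calb1 alone averaged 120, 132 and 130 CPM in these groups, so these sums mainly follow 1 gene. Pcp2 and Cbln3 were low, with group means of 0.527 to 1.45 CPM. With anti-CD8a against PBS, all 12 choroid plexus markers (median -1.52) and all 6 cerebellar markers tested (median -0.70) were estimated lower. The unadjusted p was under 0.05 for 3 cerebellar markers, Pcp2, Cbln1 and Cbln3, whose group means were at most 6.67 CPM. In APP-PS1 PBS mice the SD of Pcp2 exceeded its mean. Calb1 was at -0.13 (edgeR adjusted p = 0.541). Also estimated lower were 7 of 9 striatal markers (median -0.13) and 4 of 6 markers of inhibitory neurons (median -0.066). All 6 microglial markers were estimated higher (median 0.20), and so were 7 of 10 general neuronal (median 0.028), 3 of 6 astrocyte, 4 of 6 oligodendrocyte and 3 of 6 endothelial and mural markers. All 8 hippocampal and all 9 striatal markers were estimated lower in APP-PS1 PBS against WT mice with none called, and edgeR called 3 of 6 microglial and 2 of 6 astrocyte markers higher. No marker of these lists was at 0 in all libraries. The part of tissue make-up in the scaffold gene values was not tested.

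Among 10484 genes with a mean of at least 10 CPM, those whose level followed the mean of the 9 scaffold genes most closely over the 15 libraries included Agap2 (Pearson r = 0.95, Spearman coefficient 0.95), Cpt1c (0.95 and 0.96), Fbxl16 (0.95 and 0.91), Grasp (0.95 and 0.92) and Adgrl1 (0.95 and 0.95). Of these 5, 4 were in bin 10 of GC content and Cpt1c in bin 9. The least alike were AW549877 (r = -0.91), Wwp1 (-0.89) and Txndc16 (-0.88), all in the lowest 2 bins. These coefficients describe libraries that differ in the GC shift given above, and the part of that shift in them was not tested.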

How the data were processed

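Stranded poly(A) libraries were sequenced on a NextSeq500, per the labels' protocols. The authors deposited 1 table of raw counts of reads in genes, made with Bowtie2 2.2.2, HTSeq 0.11.2 and GRCm38 (FastQC and DESeq2 are also listed) per the submitters' processing notes. Bowtie2 does not align across introns, so that reads over exon junctions can be lost. The sources used here give neither the annotation nor the strand setting. The 5 summary lines of HTSeq, which name no gene, were left out of library sizes; reads without a feature made up 20.0 to 25.9%, ambiguous ones 1.64 to 1.79% and reads with several places 2.70 to 2.92%.

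Groups came from the labels. Each animal number marks 1 mouse, and none is shared between groups. The 30 pairs of libraries within groups were no duplicates, at 7.94 to 39.4 times the chi-square of sampling noise per degree of freedom. CPM were computed here with TMM scaling. The main test was edgeR 4.0.16's two-sided quasi-likelihood test (R 4.3.3). One model of group and labelled sex covered the 15 libraries, with 11 residual degrees of freedom, and the 18974 genes that filterByExpr kept. Benjamini-Hochberg adjustment ran over these genes, with a threshold of 0.05. Alternatives were DESeq2 1.42.0, limma-voom (limma 3.58.1), other size factors, filters and covariates, subsets of libraries and leaving out each library.

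Transcript GC content was the median over coding transcripts of GENCODE M21, had for 99.5% of genes tested. The GC correction, added after the data were seen, subtracted from each library a curve (spline, 5 degrees of freedom) through the median deviations of 20 bins of GC content. Beyond the median GC content of the lowest and highest of these bins, the curve was held flat. In simulated counts for anti-CD8a against PBS in APP-PS1 mice, over 18785 genes, the test found 16% of 1.2-fold changes, 62% of 1.5-fold, 78% of 2-fold and 96% of 4-fold ones, with 14 false calls. For APP-PS1 PBS against WT, over 18791 genes, the shares were 18%, 70%, 74% and 98%, with 11 false calls. The changed genes were drawn at random from all genes tested, whatever their level, and no GC shift was put into these counts. The shares are therefore not those of the 9 scaffold genes. The named genes are the 9 of the rule, genes of the lists described, and those most and least like the mean of the 9. One gene that this rule names is not reported here. The 9 genes and the lists were chosen with earlier results of these data known. Floors cover counting error only.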

Additional observations from a re-analysis of the deposited data

Results flagged for a closer look

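Of the values, 1 stood apart within its group among the 27 combinations of 9 genes and 3 groups that were checked, where chance gives about 1 in 20. Shank1 in anti-CD8a replicate 4 was at 427 CPM, and the other 4 libraries of its group were at 511 to 544 CPM. The GC shift of that library was -0.0057, the lowest of the anti-CD8a group. That library was also the lowest of its group for Shank2 (177 CPM) and Dlgap2 (45.0 CPM), and for none of the other scaffold genes. Its Shank3 level, at 223 CPM, lay inside its group's range.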

How the results depend on the processing

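No paired analysis was possible because no animal number is shared between groups. With anti-CD8a against PBS in APP-PS1 mice, the count of scaffold genes called was 0 in edgeR and 2 with DESeq2 (Shank3 and Iqsec2), and 0 to 1 when 1 library was left out. The median log2 fold change of the 9 genes was 0.087 without the 5 Ttr-rich libraries, 0.082 in the larger set of animal numbers, 0.093 with the GC correction and 0.092 with that correction and without APP-PS1 PBS replicate 4, and 0.14 to 0.26 when 1 library was left out. In APP-PS1 PBS against WT mice, the count was 0 to 2 and the median -0.21 to -0.10 when 1 library was left out, and the median was -0.27 in the smaller set of animal numbers. At these depths and group sizes, the test found 16% and 18% of simulated 1.2-fold changes in these comparisons. Those shares are for genes drawn at random from all genes tested, without a GC shift, and not for the scaffold genes.

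No called value changed sign. Values for labelled males against WT mice rest on 1 WT library, replicate 5. The following uncalled log2 values changed sign, and the cause was not tested. With anti-CD8a against PBS in APP-PS1 mice these were Shank2 without the Ttr-rich libraries (-0.034), Dlgap1 in labelled males (-0.015) and in the smaller set of animal numbers (-0.0034), Homer2 in the smaller set (-0.016), Dlgap1 and Homer2 with the GC correction (-0.0089 and -0.023), and both with that correction and without APP-PS1 PBS replicate 4 (-0.057 and -0.068). In APP-PS1 PBS against WT mice these were Dlgap2 without the Ttr-rich libraries (0.040), Dlgap1 and Dlgap2 in labelled males (0.011 and 0.011), Homer2 with the GC correction (0.025), and Dlgap1, Dlgap2 and Homer2 with that correction and without APP-PS1 PBS replicate 4 (0.024, 0.015 and 0.085). Homer2 ran between -0.065 and 0.0019 when 1 library was left out. In anti-CD8a-treated against WT mice, Homer2 was at -0.0019 with RLE size factors, -0.0049 with DESeq2, -0.00087 with no filter, -0.0030 with no sex term, -0.016 with Ttr as a covariate, -0.020 without the Ttr-rich libraries, -0.036 in labelled males and -0.036 in the smaller set. Dlgap3 was at -0.0078 with no sex term, -0.048 with Ttr as a covariate, -0.11 in labelled females, -0.067 in the larger set, -0.038 with those 2 groups alone and -0.0041 with the GC correction and without APP-PS1 PBS replicate 4. Dlg4 was at 0.010 in labelled females and 0.043 in the larger set, Shank1 at -0.0016 with no sex term and Iqsec2 at -0.0024 in the smaller set. When 1 library was left out, Homer2 ran between -0.039 and 0.027, Dlgap3 between -0.017 and 0.063 and Dlg4 between -0.054 and 0.0025. Of the log2 ratios, Dlgap3 to Dlgap2 differed by -0.028 to 0.14 between the APP-PS1 groups when 1 library was left out. In APP-PS1 PBS against WT mice, the GC correction gave 0.029 for Shank3 to Shank2, 0.037 for Shank1 to Shank2 and 0.013 for Dlgap2 to Dlgap1. Without the Ttr-rich libraries, Shank3 to Shank1 gave 0.041 and Dlgap2 to Dlgap1 gave 0.12. When 1 library was left out, these 2 ran from -0.038 to 0.025 and from -0.075 to 0.029.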
